A study of Mus musculus with 32 samples.

Results

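Slc2a5, the fructose transporter GLUT5, and 4 other genes of fructose transport and breakdown (Slc2a2, Khk, Sord and Glyctk) were followed in brown adipose tissue of mice lacking ChREBP. Members were found by gene name among the array probes that also stood in the deposited table. All 5 genes were found, with 7 probes, out of 24523 gene names and 37306 probes measured. An eighth probe, the second of Glyctk, was well above background on 3 WT arrays of the total line and 2 WT arrays of the β line only and did not enter the table. The genes were selected on the total ChREBP KO comparison of these same arrays, in which Slc2a5 stood out, so their values in that comparison are a description without a test, and the comparison of ChREBPβ KO with WT is the one tested.

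RNA of interscapular brown adipose tissue from male C57BL6/J mice was hybridised to 32 one-colour arrays, 8 in each of 4 groups. In total ChREBP KO the Mlxipl gene was inactivated, so that neither the α nor the β isoform of ChREBP is made. In ChREBPβ KO a stretch of Mlxipl that contains exon 1b, from which the β isoform starts, was cut out with Cas9. Each KO was set against WT littermates of its own line. Every mouse, WT included, went through a 24-hour fast before 18 hours of refeeding on food plus 20% glucose water, so no group shows the fasted or the chow-fed state. Age and the founder of the ChREBPβ line used for the arrays were not given in the sources used here, and both deletions were present in the whole body, in liver and gut as well as fat.

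Fructose enters cells through facilitative hexose transporters, of which GLUT5 (Slc2a5) is the one specialised for fructose and GLUT2 (Slc2a2), typical of liver and pancreatic islets, carries glucose and fructose. Ketohexokinase (Khk) phosphorylates fructose to fructose 1-phosphate, which is then split, and the glyceraldehyde released can be turned into glycerate, which glycerate kinase (Glyctk) phosphorylates. Sorbitol dehydrogenase (Sord) makes fructose inside the cell from sorbitol in the polyol pathway. ChREBP is a carbohydrate-sensing transcription factor that binds paired E-boxes, called carbohydrate response elements, as a heterodimer with Mlx.

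The promoter windows of Slc2a5 and Khk are shown because one belongs to the member whose signal was near background without ChREBP and the other is the only member window with a full E-box. Each runs from 250 bases before to 50 bases after the RefSeq start of the gene, on the + strand of GRCm38.p6, and capitals mark the E-box CACGTG, which reads the same on both strands.
Slc2a5 (chr4:150119094-150119393): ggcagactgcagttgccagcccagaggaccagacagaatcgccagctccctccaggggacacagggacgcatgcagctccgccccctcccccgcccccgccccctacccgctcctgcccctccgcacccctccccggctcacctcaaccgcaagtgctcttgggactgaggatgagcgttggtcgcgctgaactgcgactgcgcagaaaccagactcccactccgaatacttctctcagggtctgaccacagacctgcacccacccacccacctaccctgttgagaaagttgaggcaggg
Khk (chr5:30921309-30921608): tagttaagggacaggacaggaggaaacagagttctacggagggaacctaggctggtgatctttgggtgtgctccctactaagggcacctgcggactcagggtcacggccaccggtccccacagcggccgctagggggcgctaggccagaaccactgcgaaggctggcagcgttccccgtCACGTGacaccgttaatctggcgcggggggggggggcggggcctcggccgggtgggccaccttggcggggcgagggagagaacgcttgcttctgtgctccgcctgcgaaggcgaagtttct
The Khk window held 1 E-box, with its first base at position -71 from the start. The windows of Slc2a5, Slc2a2, Sord and Glyctk held 0. Over all 32851 promoter windows of the RefSeq table, 7.15% held at least 1. The degenerate consensus of the carbohydrate response element, a pair of E-box-like motifs with a spacer of 5 bases, was searched on both strands. It was found in 9 of the 32851 windows, or 0.0274%, and in 0 of the 5 member windows. These matches describe letters in short windows and say nothing about elements elsewhere in the genes.

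Intensities are log2 values after quantile normalization, and a difference of 1 is a factor of 2. In WT mice of the total line, the lowest, median and highest Slc2a5 values were 13.57, 13.88 and 14.18. In total ChREBP KO they were 4.39, 4.96 and 5.25. The groups did not overlap, and all 8 KO arrays lay more than 8 units under the lowest WT array. In WT mice of the β line the values were 13.92, 14.21 and 14.53, and in ChREBPβ KO they were 13.89, 14.24 and 14.48, so these groups covered the same range. Slc2a5 was bright in 3 of the 4 groups and at the bottom of the scale in the fourth.

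The remaining Slc2a5 signal in total ChREBP KO was close to what the scanner could measure. Before normalization its median pixel intensity on the 8 KO arrays ran from 19.5 to 46 over a local background of 16 to 24, against 13700 to 22000 on the WT arrays of that line. It was well above background on 6 of the 8 KO arrays and on all 24 others. On those KO arrays the dimmest probe well above background had a log2 value of 4.41 to 4.70, within the range of Slc2a5. The mean was 13.88 ± 0.19 (SD, n = 8) in WT and 4.89 ± 0.30 in total ChREBP KO, a log2 difference of -8.99 (SE 0.11) or a factor of 508. The size depended on the background handling, since the log2 difference was -10.70 with Agilent's background-subtracted signal and -7.85 after normexp correction with an offset of 50. Within the 4 wash batches it was -8.72, -9.25, -9.27 and -9.10, each from 1 to 3 arrays a group.

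**Figure D1:**
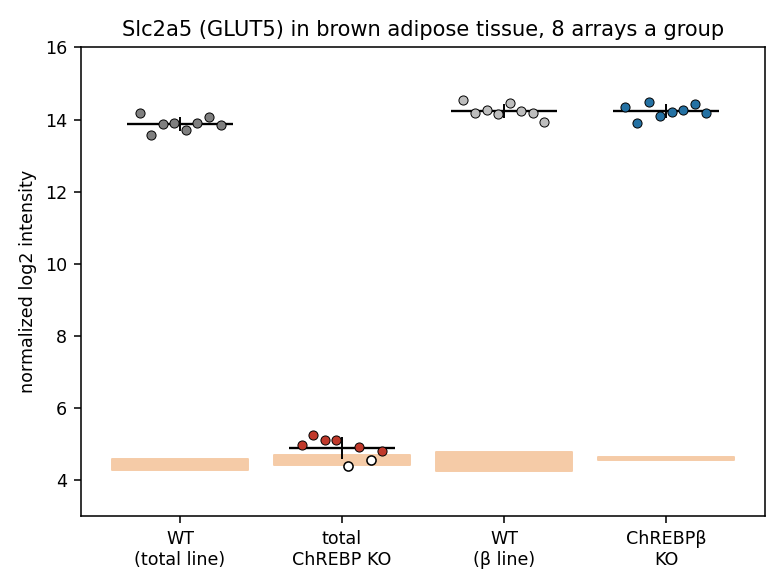
Normalized log2 intensity of the Slc2a5 probe (y axis) on each of the 8 arrays of each group (x axis), with the group mean as a horizontal line and 1 SD as a vertical line. Shaded bands span the dimmest probe well above background on the arrays of each group, open points are arrays on which Slc2a5 was not well above background, and total ChREBP KO lies at the band while the other groups lie between 13.57 and 14.53.

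The ChREBPβ KO group was separate from the arrays on which Slc2a5 was chosen and could be tested. Its mean was 14.24 ± 0.19 (n = 8), and that of its WT littermates was 14.24 ± 0.19. The log2 difference was -0.01 (SE 0.11, 95% interval -0.23 to 0.21, limma adjusted p = 0.99). An exact two-sided permutation test over the 12870 splits of the 16 arrays gave p = 0.936. A change of Slc2a5 mRNA by more than about 0.23 log2 units in either direction lies outside that interval. The KO effects in the lines thus differed by 8.98 (SE 0.15), given as a value only. The β-line WT mean was higher than the total-line WT mean by 0.36, and all 8 β-line WT arrays lay above the total-line WT mean, though the ranges overlapped.

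The targeted gene was measured by 3 probes. On the brightest probe of Mlxipl, the mean was 16.15 ± 0.12 in total-line WT and 13.67 ± 0.15 in total ChREBP KO; the log2 value fell by 2.48 (limma adjusted p = 2.02e-24). On the same probe it was 16.34 ± 0.14 in β-line WT and 14.84 ± 0.10 in ChREBPβ KO; the log2 value fell by 1.50 (limma adjusted p = 7.09e-17). In both lines 2 of the 3 probes fell and the third was not called. The position of the probes relative to the deleted parts was not settled here, so the levels are no measure of residual protein. Signal on 2 of the 3 Mlxipl probes therefore fell in both KO groups, whereas Slc2a5 was low in one of them. The probes do not separate the isoforms here. By isoform PCR the paper found no β mRNA in ChREBPβ-deficient mice. For the males it reports higher ChREBPα mRNA and protein in brown fat.

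The hepatic-type transporter Slc2a2 gave a signal near background everywhere. Its pixel intensity ran from 27 to 108 over the 32 arrays, over a local background of 14 to 28.5, although the software called it well above background on all of them. The lowest, median and highest log2 values were 4.80, 5.34 and 5.88 in total-line WT and 5.28, 5.71 and 6.28 in total ChREBP KO. They were 5.26, 5.65 and 6.58 in β-line WT and 5.15, 5.73 and 6.44 in ChREBPβ KO. All 4 groups overlapped. The probe spans 709 bases of chromosome 3 in mm9 (chr3:28625253-28625961) for its 60 bases and thus crosses at least 1 intron. The total ChREBP KO difference was 0.39 (SE 0.20). ChREBPβ KO differed from WT by -0.12 (95% interval -0.53 to 0.28, limma adjusted p = 0.879).

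Khk, the first enzyme of fructolysis, was read by a pair of probes whose targets differ. Probe A_52_P72434 (chr5:31233555-31233614, mm9) is annotated to the curated RefSeq transcript and to predicted ones, and probe A_55_P2168643 (chr5:31229105-31229164, mm9) to predicted transcripts only. Khk is known to make isoforms A and C from mutually exclusive exons, and the files do not state which of them either probe reads. The sequence of the second probe is given, all in lower case, because the probes ordered the lines differently.
Khk probe A_55_P2168643: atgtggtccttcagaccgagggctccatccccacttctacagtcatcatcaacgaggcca
On A_52_P72434 the lowest, median and highest values were 10.76, 10.90 and 11.16 in total-line WT and 10.80, 11.19 and 11.42 in total ChREBP KO. They were 11.02, 11.26 and 12.05 in β-line WT and 10.67, 11.19 and 11.80 in ChREBPβ KO. All groups overlapped on this probe. The total ChREBP KO difference was 0.20 (SE 0.14) and the ChREBPβ KO difference -0.15 (95% interval -0.43 to 0.13, limma adjusted p = 0.731).

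On the other Khk probe the medians of the groups were 6.77, 6.78, 6.53 and 6.50 in the same order, with an SD between 0.13 and 0.18. The total ChREBP KO difference was -0.01 (SE 0.08) and the ChREBPβ KO difference -0.07 (95% interval -0.23 to 0.09, limma adjusted p = 0.778). Between the WT groups the probes went opposite ways, with the β line 0.43 higher on A_52_P72434 and 0.25 lower on A_55_P2168643. In total ChREBP KO the lowest KO array on each Khk probe was within 0.05 log2 units of the lowest WT array. Probe A_52_P72434 thus showed no loss like that of Slc2a5. Probe A_55_P2168643 was dim and could not have shown a fall of that size. Its pixel intensities in total-line WT were 102 to 146 over a local background of 17 to 19.

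Sord, which forms fructose from sorbitol, was measured by a pair of neighbouring probes on chromosome 2, both annotated to the same transcript. On the brighter one, A_55_P1953301 (chr2:122091013-122091072, mm9), the lowest, median and highest values were 11.73, 11.93 and 12.08 in total-line WT and 12.02, 12.17 and 12.44 in total ChREBP KO. They were 11.70, 11.99 and 12.30 in β-line WT and 12.07, 12.20 and 12.33 in ChREBPβ KO. Every KO array lay above the median of its WT group in both lines. The total ChREBP KO difference was 0.31 (SE 0.07), with 8 of 8 KO arrays above the WT mean. In ChREBPβ KO it was 0.22 (SE 0.07), again with 8 of 8 arrays above the WT mean, with a limma adjusted p of 0.111 and an exact permutation p of 0.0141.

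On the other Sord probe, A_51_P273596 (chr2:122090499-122090558, mm9), the total ChREBP KO difference was 0.42 (SE 0.07). The values were 10.55, 10.72 and 11.05 in β-line WT and 10.94, 11.02 and 11.22 in ChREBPβ KO. Sord rose there by 0.28 (SE 0.07, limma adjusted p = 0.038, exact permutation p = 0.00466, 8 of 8 arrays above the WT mean), or 1.21-fold. Over 30 settings of the analysis this probe was called in 14, with adjusted p values from 0.0151 to 0.167 and a log2 difference of 0.24 to 0.32 throughout. The call was lost without any of ChREBPβ KO replicates 3, 4, 5 or 6 or β-line WT replicates 1, 3, 4, 5 or 8, among other settings. By their brightest probes, 0 of 5 members were called in ChREBPβ KO, where 2.70% of all 24523 genes were. At an unadjusted limma p under 0.05 the count was 1 of 5, where 14.1% of all genes passed. With both Khk and both Sord probes counted, 1 of 7 probes was called, beside 2.55% of all 37306 probes. Sord was the only member called on any probe in this comparison.

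Glyctk, glycerate kinase, differed more between the lines than between genotypes within a line. On its probe (chr9:106055260-106055319, mm9, minus strand) the lowest, median and highest values were 9.18, 9.42 and 9.55 in total-line WT and 9.32, 9.61 and 9.74 in total ChREBP KO. They were 9.79, 10.08 and 10.40 in β-line WT and 9.79, 10.04 and 10.53 in ChREBPβ KO. Every array of the β line lay above every array of the total line. The β-line WT mean exceeded the total-line WT mean by 0.70 (SE 0.09), 1.62-fold. Within the lines, the total ChREBP KO difference was 0.20 (SE 0.09), with 7 of 8 KO arrays above the WT mean, and the ChREBPβ KO difference 0.03 (95% interval -0.16 to 0.21, limma adjusted p = 0.959).

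**Figure D2:**
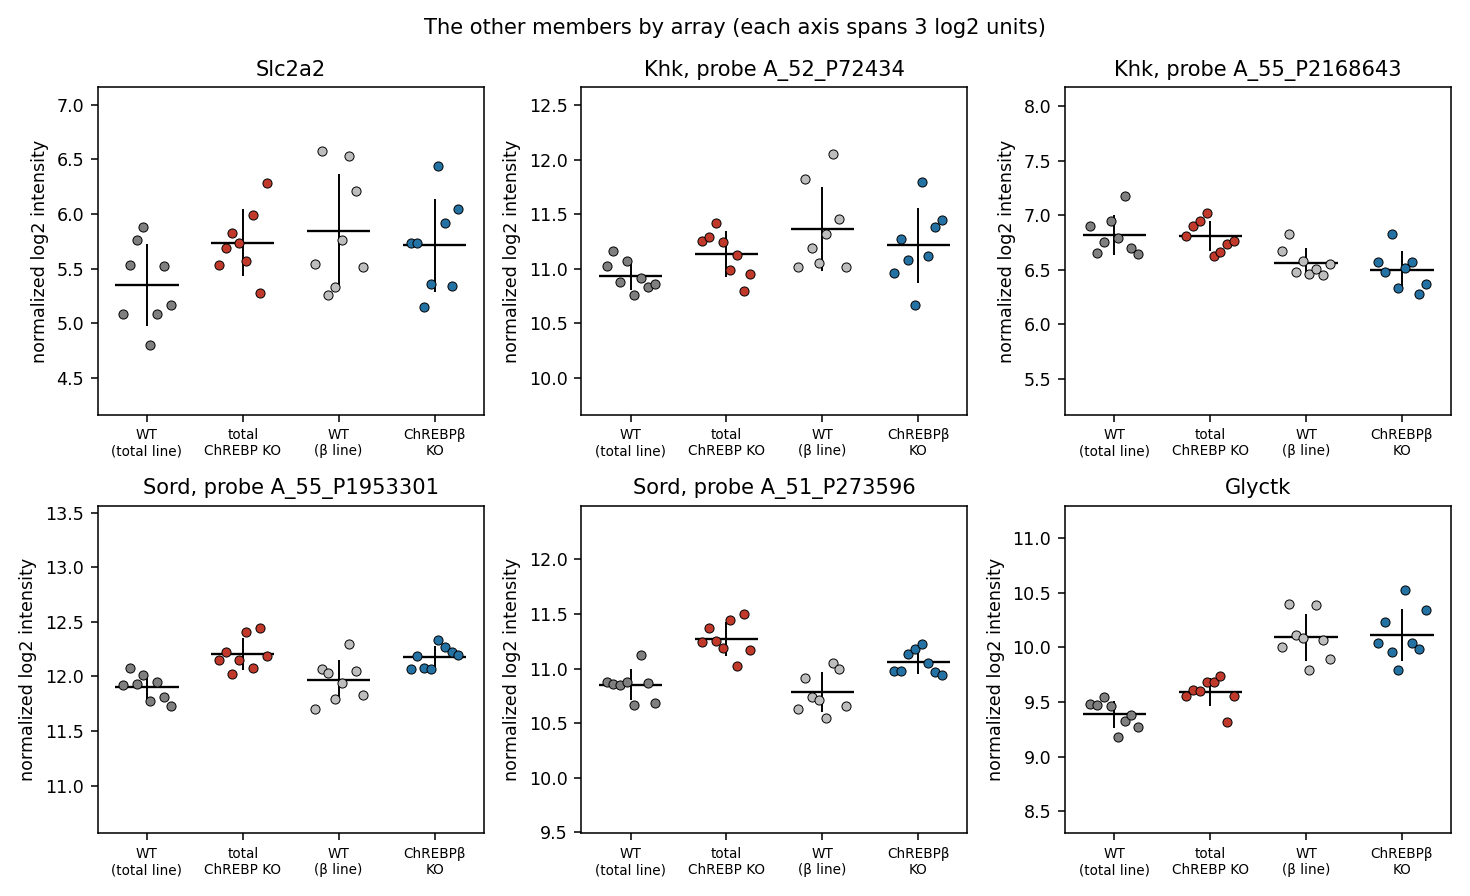
Normalized log2 intensity (y axis, 3 log2 units in each panel) of the 6 probes of Slc2a2, Khk, Sord and Glyctk on the 8 arrays of each group (x axis), with means as horizontal lines and 1 SD as vertical lines. Sord lies higher in both KO groups than in their WT groups, and all Glyctk values of the β line (9.79 to 10.53) lie above those of the total line (9.18 to 9.74).

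The arrays differed in genes of other tissues, and some members were highest on arrays with high liver signal. The 6 brown adipocyte genes were well above background on all arrays, with a list mean between 14.4 and 15.5. That mean hides opposite shifts in the total line. Dio2 averaged 13.01 in WT and 15.2 in total ChREBP KO, Elovl3 14.07 and 10.91, and Cox8b 17.51 and 17.91, each without overlap. Ucp1, Cidea and Prdm16 overlapped between those groups, and in the β line all of these genes overlapped. The mean of 10 liver genes ran from 6.46 to 11.7 in total-line WT, 6.45 to 9.41 in total ChREBP KO, 6.60 to 13.6 in β-line WT and 6.47 to 13.2 in ChREBPβ KO. Of these 10 genes, 5 or 6 were well above background on all arrays of a group. The 10 skeletal muscle genes averaged 12.9 to 16.2 in total-line WT and 14.4 to 15.9 in total ChREBP KO, but 5.48 to 12.0 in β-line WT and 5.50 to 11.4 in ChREBPβ KO. Line and muscle signal therefore cannot be told apart. Within the total line other lists moved with the genotype. The mean of 7 macrophage genes was 10.12 to 10.77 in WT and 9.64 to 9.94 in total ChREBP KO, and that of 4 adipocyte genes was 14.29 to 14.44 in WT and 14.63 to 14.77 in total ChREBP KO, without overlap in either case. Not every gene of these lists moved alike. The macrophage gene Itgam averaged 13.36 in WT and 13.35 in total ChREBP KO. Itgam, Adgre1, Cd68 and the adipocyte gene Fabp4 overlapped between those groups, and the other genes of both lists did not. In the β line both lists overlapped between the groups. All genes of both lists were well above background on every array, and their part in the total ChREBP KO values was not tested. In bulk tissue, fewer cells of a type and less RNA per cell cannot be told apart either.

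The 3 arrays with the highest Khk values on probe A_52_P72434 (12.05, 11.82 and 11.80) were also the 3 with the highest Slc2a2 values (6.53, 6.58 and 6.44), and their liver list means were 13.58, 12.60 and 13.25. Other arrays did not follow this order. ChREBPβ KO replicate 8 and β-line WT replicate 7 had liver list means of 13.02 and 12.67, with Khk at 11.45 and 11.46. The next highest Slc2a2 value, 6.28, came from total ChREBP KO replicate 8, with a liver list mean of 6.58. The part of liver RNA in these values was not tested. Liver and muscle list means were also used as covariates, a setting added after the data had been seen. The difference between the WT groups became 0.23 (SE 0.16) in place of 0.43 for Khk on that probe. It became 0.00 (SE 0.25) in place of 0.49 for Slc2a2. For Glyctk it became 0.52 (SE 0.12) in place of 0.70, and for Slc2a5 0.62 (SE 0.17) in place of 0.36. The muscle list did not overlap between the lines, so these values cannot separate line from muscle signal. With those covariates Slc2a5 differed by -9.01 (SE 0.10) in total ChREBP KO and by 0.02 in ChREBPβ KO, as large as without them in the one case and as near to 0 in the other. Its SD was 0.19 in each WT group, and the liver list mean varied there over more than 5 log2 units. The covariates left out the macrophage and adipocyte lists, and the part of other cells in the Slc2a5 values was not tested.

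**Figure D3:**
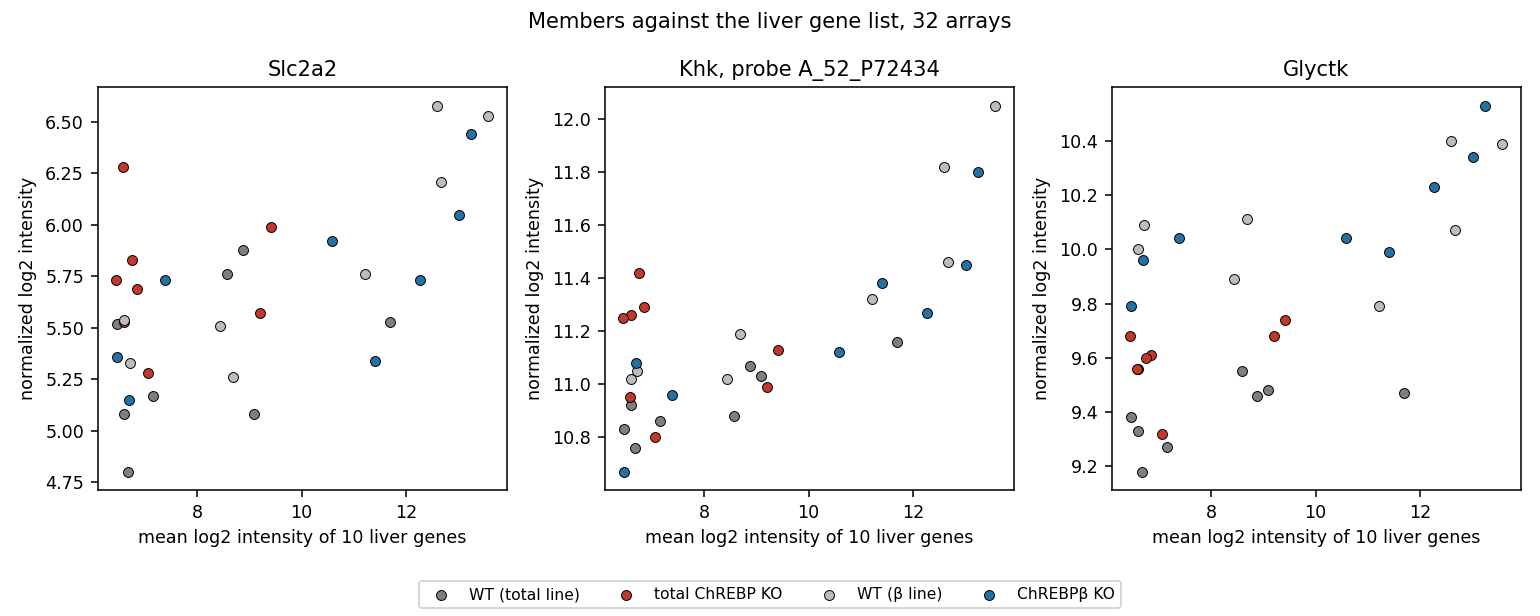
Normalized log2 intensity of Slc2a2, Khk (probe A_52_P72434) and Glyctk (y axes) against the mean log2 intensity of 10 liver genes (x axes) on the 32 arrays, coloured by group. Khk was highest, at 12.05, on the β-line WT array with the highest liver mean, and the β-line arrays of Glyctk lie above those of the total line at every liver mean.

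Around the members, 22 of 23 listed genes of hexose transport, fructose and sorbitol metabolism and triose handling had a measured probe, and Slc2a7 had none. In total ChREBP KO, 9 of the 22 changed, beside 44.1% of all genes: 3 were higher, beside 22.9%, and 6 lower, beside 21.1%. The median log2 difference of the 22 was -0.13, against 0.01 over all genes. Hexokinases and glycolytic isomerases made up the larger falls. Hk2, the insulin-responsive hexokinase of muscle and fat, had values of 14.88 to 15.14 in WT and 12.73 to 13.21 in total ChREBP KO and fell by 1.94 (limma adjusted p = 5.54e-21). Gpi1, which interconverts glucose 6-phosphate and fructose 6-phosphate, fell by 1.12 (limma adjusted p = 2.46e-16) on its brightest probe, and all 4 of its probes fell. Neither gene overlapped between the groups.

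Smaller falls were those of the hexokinase Hk3 by 0.52, beside the lower macrophage list in the same arrays, of the transporter Slc2a12 by 0.46, of the muscle-type fructose bisphosphatase Fbp2 by 0.32 and of aldolase A, Aldoa, by 0.22. The Aldoa call was lost with Agilent's processed signal (-0.15, adjusted p = 0.113), and its WT values of 18.79 to 18.85 lay near the top of the normalized scale. The probes of Slc2a12 disagreed, since 1 was called lower and 1 higher. The Fbp2 call was lost without any of total-line WT replicates 1, 3, 6 or 7 or total ChREBP KO replicates 2 or 8. The 3 genes that rose were glycerol kinase, listed as Gyk on the array, by 0.89 (limma adjusted p = 0.000152), the glyoxylate and hydroxypyruvate reductase Grhpr by 0.63 (limma adjusted p = 6.97e-07) and the triose phosphate isomerase Tpi1 by 0.39 (limma adjusted p = 0.000284). Grhpr was higher on all 3 of its probes and lay above the WT mean on 8 of 8 KO arrays. Gyk was called higher on 2 of its 3 probes and Tpi1 on 3 of its 4.

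Other enzymes around Khk and Sord were less clear. Fbp1, the liver-type fructose bisphosphatase, had a difference of -1.56 (SE 0.67, limma adjusted p = 0.058) and, with the liver and muscle list means as covariates, of -1.10 (adjusted p = 0.000111). Its values were 6.03 to 8.86 in WT and 4.97 to 5.99 in total ChREBP KO, without overlap. The SE rests on a spread shared by all 4 groups, with an SD of 0.96 and 0.36 in the total line but 1.76 and 1.96 in the β line. Fbp1 was called in 8 of 30 alternatives, among them those without total-line WT replicate 6 or 7. The fructokinase-pathway triokinase Tkfc had a difference of -0.14 (limma adjusted p = 0.481) on its brightest probe, while its other probe was called higher. The aldose reductase gene Akr1b3, which supplies sorbitol for Sord, had a difference of 0.15 (limma adjusted p = 0.0524) and was called in 10 of 30 alternatives, among them those without total ChREBP KO replicate 1 or 6 or total-line WT replicate 1. The fructose-carrying transporters Slc2a8 and Slc2a9 had differences of -0.05 and -0.03.

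In ChREBPβ KO, 1 of the 22 genes changed, again beside 2.70% of all genes, with a median of -0.06 against 0.00 over all genes. That gene was Gpi1, which fell by 0.30 (SE 0.06, limma adjusted p = 0.00357), with 8 of 8 KO arrays under the WT mean. The call was lost with scaling to the 75th percentile and with slide as a fixed block. Hk2 had a difference of -0.11 (limma adjusted p = 0.504). The KO effects of the lines differed for 8 of the 22 genes, beside 25.2% of all genes. Among them were Hk2 by 1.83 (limma adjusted p = 1.25e-15) and Gpi1 by 0.83 (limma adjusted p = 4.4e-09), less lowered in ChREBPβ KO than in total ChREBP KO.

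**Figure D4:**
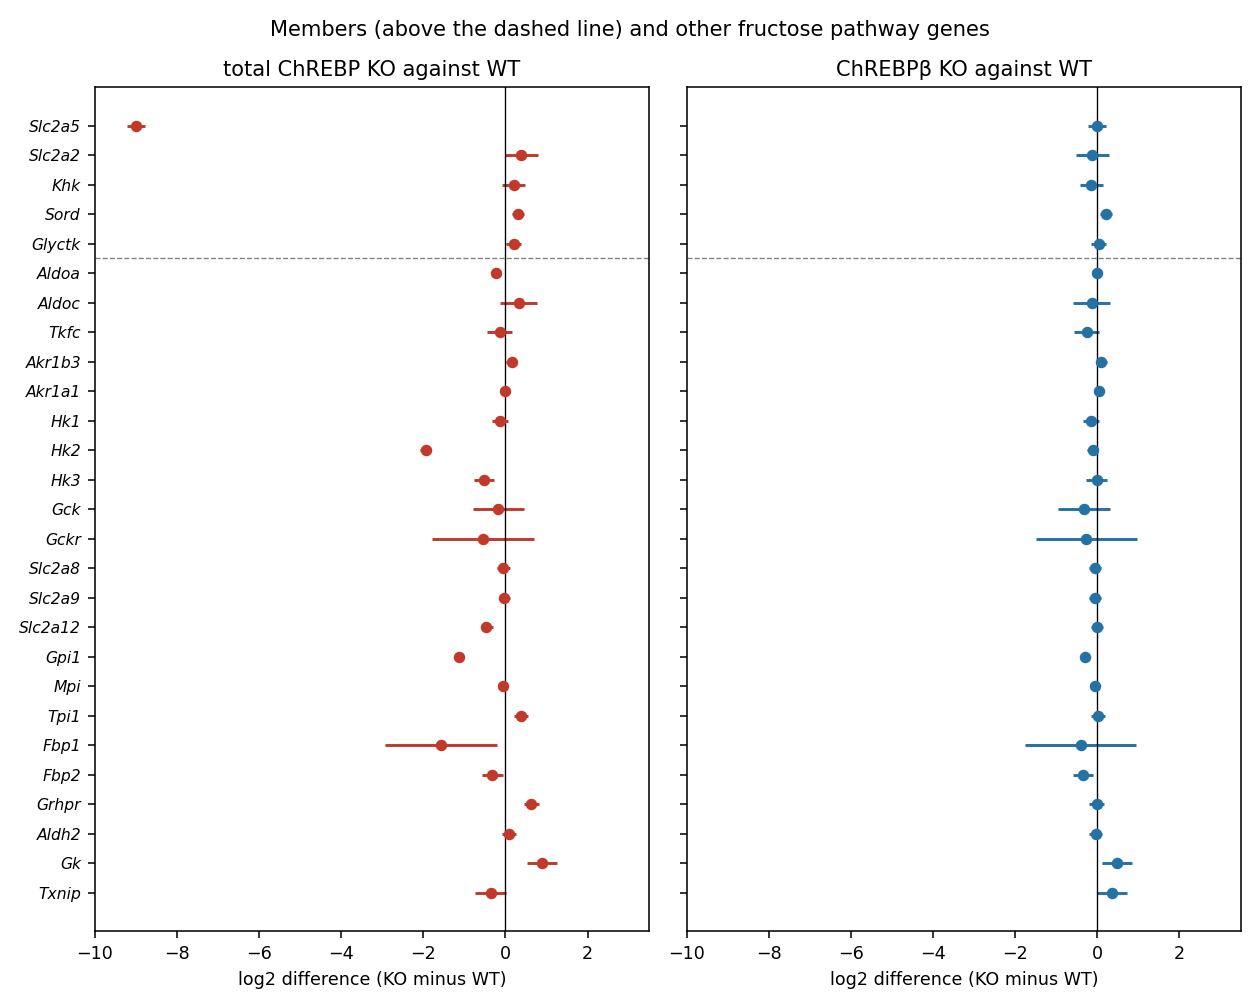
Log2 differences (x axis, KO minus WT) with 95% intervals for the 5 members and 22 other fructose pathway genes (y axis), by brightest probe, in total ChREBP KO and in ChREBPβ KO. Slc2a5 lies at -8.99 in the first panel and at -0.01 in the second, and Hk2 (-1.94) and Gpi1 (-1.12) lie below 0 with narrow intervals in the first.

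The genes most like Slc2a5 were sought by Pearson correlation, as a description. Over all 32 arrays the 5 highest were Sorcs2 (r = 0.997), Acly (0.995), Atp4b (0.995), Acaca (0.993) and Hk2 (0.991). These values rest on the separation of total ChREBP KO from the other 3 groups. Acly and Acaca make cytosolic acetyl-CoA and malonyl-CoA for fatty acid synthesis, and Atp4b is the β subunit of the gastric proton pump. In total ChREBP KO their log2 differences were -6.91 for Sorcs2, -5.90 for Atp4b, -3.58 for Acly and -3.49 for Acaca. Atp4b, at 5.08 in total ChREBP KO, was near background like Slc2a5, so the size of its difference is limited by its WT level.

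Within groups the likeness was weaker. Over the 24 arrays of the 3 groups in which Slc2a5 was bright, after subtraction of the group means, the 5 highest were Kdm8 (r = 0.81), Crb2 (0.772), Slc37a4 (0.728), Gm10482 (0.727) and Bsn (0.723). Slc37a4, the glucose 6-phosphate transporter of the endoplasmic reticulum, had means of 12.25 in total-line WT, 10.55 in total ChREBP KO, 12.70 in β-line WT and 12.81 in ChREBPβ KO. The arrays within a group share wash batches and slides, and Crb2 and Bsn were near background. These values of r are the highest of a search over the measured genes. How high unrelated genes would reach was not tested.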

How the data were processed

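The authors deposited scanner files with median pixel intensities per spot from Agilent Feature Extraction 10.10.1.1, per the labels, with no normalization between arrays. A deposited table gives filtered, quantile normalized log2 values. The main values were rebuilt from the intensities. Spots had to be found, significantly positive and clear of background on 26 or more of 32 arrays, or on 6 or more arrays of 1 group. Log2 intensities were quantile normalized and replicated probes reduced to their median (they differed from the deposited values by 0.00298 on average). Each probe was fitted with limma 3.58.1 (lmFit, eBayes; R 4.3.3) with 4 group means, Benjamini-Hochberg adjustment over all 37306 probes and a threshold of 0.05, after a test on simulated data. For each gene the brightest probe was taken. The labels name no animal for an array, so p-values measure the spread between arrays. No spot was saturated, and 64.4% to 71.1% of spots per array were well above background, and the number of arrays limits the precision. Coordinates are mm9, and promoter windows are RefSeq on GRCm38.p6.

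Members, gene lists and tests were chosen with earlier results of these data known. A gene first placed in the pathway list is not reported here and was left out of its counts. Named genes are the members, the pathway list, Mlxipl, markers of brown adipocytes, adipocytes and macrophages, and the 5 genes most like Slc2a5 by each of the measures. Alternatives covered background, scaling, filter, wash batch, slide, replicate number, array weights, the groups in the fit, the mean over the probes of a gene, tissue covariates and leaving out each array.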

Additional observations from a re-analysis of the deposited data

Results flagged for a closer look

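The KO effects of the lines differed, by the limma test of the difference, for 8 pathway genes. The effect in ChREBPβ KO minus that in total ChREBP KO was 1.83 for Hk2, 0.83 for Gpi1, 0.72 for Txnip (adjusted p = 0.0376), 0.50 for Hk3 (adjusted p = 0.0336), 0.45 for Slc2a12 (adjusted p = 0.000883), 0.20 for Aldoa (adjusted p = 0.0116), -0.37 for Tpi1 (adjusted p = 0.0185) and -0.65 for Grhpr (adjusted p = 0.000258). Txnip, a glucose-induced gene, was called in neither KO comparison alone, with log2 differences of -0.36 in total ChREBP KO and 0.36 in ChREBPβ KO, although without total ChREBP KO replicate 4 the first was -0.45 and past the threshold.

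Among 28 sets of 8 values of the member probes, 1 held an array far from the others, where chance gives about 1 in 20. Glyctk in total ChREBP KO replicate 7 was 9.32, and the next lowest array was 9.56.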

How the results depend on the processing

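The Slc2a5 difference in total ChREBP KO was -10.70 with the processed signal, -7.85 with normexp and -8.72, -9.25 and -9.27 within wash batches 1, 2 and 3. The difference between its KO effects was 10.64, 7.84 and, within batch 3, 9.35. Its difference between WT groups was 0.62 with the tissue covariates and 0.68 and 0.05 within batches 2 and 3. The cause was not tested. Members called in ChREBPβ KO numbered 1, Sord, in place of 0 with array weights, the covariates and the mean over probes, and ranged from 0 to 1 when each array was left out, with 1 only without β-line WT replicate 6. The count of pathway genes called in ChREBPβ KO was 0 with either scaling to the 75th percentile, and that in total ChREBP KO ran from 8 to 11. With the replicate number as a block, Slc2a5 differed by -8.99 and -0.01 in the lines, 0 members were called, and pathway calls were 11 and 1. Deviations of same-numbered arrays correlated between -0.304 and 0.0801 in the total line. In the β line 6 of 8 pairs lay between 0.191 and 0.532 and the others at 0.0582 and -0.196, and 1 of 16 arrays correlated best with its own number. The labels give the numbers no meaning, and the samples were treated as unpaired. No direction of a called value reversed under any of the alternatives run. Dim signal limits Slc2a2, Khk probe A_55_P2168643 and, in total ChREBP KO, Slc2a5.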
